A study of Mus musculus with 8 samples.

Results

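The 6 genes described here are Mbp, Sox10, S100b, Ncam1, L1cam and Gfap, which are commonly used to mark Schwann cells and peripheral nerve. They were chosen from a list of Schwann and nerve markers whose summed level had already been seen to be higher after treatment in these same libraries. The treatment differences below are therefore given as a description and support nothing about the set. All 6 genes had a row in the matrix of 52636 genes. Counts were found for 5 of them, and these 5 were among the 16045 genes tested.

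The libraries hold polyA RNA of leptin receptor positive (LEPR+) stromal cells from the marrow of C57BL/6 mice. Both groups received 150 µg of protein into a vein, once a week for 3 weeks. Control mice were given HEL-Ig, an IgG1 against hen egg lysozyme, and treated mice were given LTβR-Ig, a decoy for the lymphotoxin β receptor. Marrow was flushed from long bones and digested with collagenase. Living cells that were CD45-, Ter119-, CD31-, CD144- and LEPR+ were sorted, then sorted again by the same gate. Age, sex and the number of mice per library are not given in the labels, and no batch is named. Each group has 4 libraries. Nothing in the labels says that each came from its own mouse, so every p-value here reflects variation between libraries that may be technical. Total gene counts lay between 52378101 and 64403177 per library. Levels are CPM, counts relative to the library total, scaled by TMM, a factor that makes libraries comparable. Lepr, the gene of the sorted receptor, was at 4310 CPM on average in control and 3910 in LTβR-Ig libraries.

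Schwann cells are the glia of peripheral nerves, and nerve fibres enter the marrow along arteries. Sox10 is the transcription factor that defines the Schwann lineage, Mbp is a structural protein of compact myelin, and Gfap is an intermediate filament of astrocytes and of Schwann cells that make no myelin. S100b is a calcium-binding protein made by glia and also by cartilage and fat cells. Ncam1 and L1cam are adhesion molecules of the immunoglobulin superfamily, found on nerve and, for Ncam1, on many mesenchymal cells. Beyond the requirement for LEPR, the gate holds no marker directed at Schwann cells or nerve. In bulk libraries, fewer cells of a type and less RNA per cell cannot be told apart.

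The 250 bases before the start site of S100b are shown because S100b had the highest level per kilobase of exon in the set. They come from the RefSeq promoter table on GRCm38.p6, at chr10:76253586-76253835 on the plus strand. Mbp was left out of the lookup in that table. Of the remaining genes of the set, 3 were matched to it.
S100b: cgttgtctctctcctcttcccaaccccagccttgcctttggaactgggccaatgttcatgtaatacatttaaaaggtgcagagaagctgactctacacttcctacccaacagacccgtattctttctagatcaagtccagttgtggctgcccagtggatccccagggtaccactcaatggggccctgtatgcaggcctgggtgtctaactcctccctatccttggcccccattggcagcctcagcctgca
The stretch holds 53.6% G and C. The letters ACAAAG, a core bound by SOX factors, were searched on both strands and had 0 matches in the 300 bases around this start site. They were found in 18.7% of 32851 RefSeq promoters of that length. A match or its lack describes these letters only.

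Ncam1 and S100b were higher on average with LTβR-Ig, while Mbp was at 21.6 CPM in control and 19.5 with LTβR-Ig, and Sox10 had no count in any library. Gfap and L1cam were low and varied widely from library to library. In the quasi-likelihood test of edgeR, with p-values adjusted by Benjamini-Hochberg over the whole table, 0 of the 5 tested genes passed an adjusted p of 0.05, as did 0.0374% of all 16045 genes. The Wald test of DESeq2 called 1 of the 5, Ncam1, which was higher. It called 1.25% of the 15931 genes for which it gave an adjusted p, 0.552% as higher. At an unadjusted p under 0.05, 2 of the 5 were higher, Ncam1 and S100b, and 0 were lower. The share of all tested genes was 3.39% higher and 2.93% lower. In 1 of the 5, Ncam1, all 4 LTβR-Ig libraries lay above all 4 controls, as did 2.36% of tested genes, and in 0 of the 5 they all lay below, as did 2.53%. Since this contrast chose the set, nothing is read from these counts. The median log2 fold change was 0.78 over the 5 genes and -0.0021 over all tested genes.

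**Figure D1:**
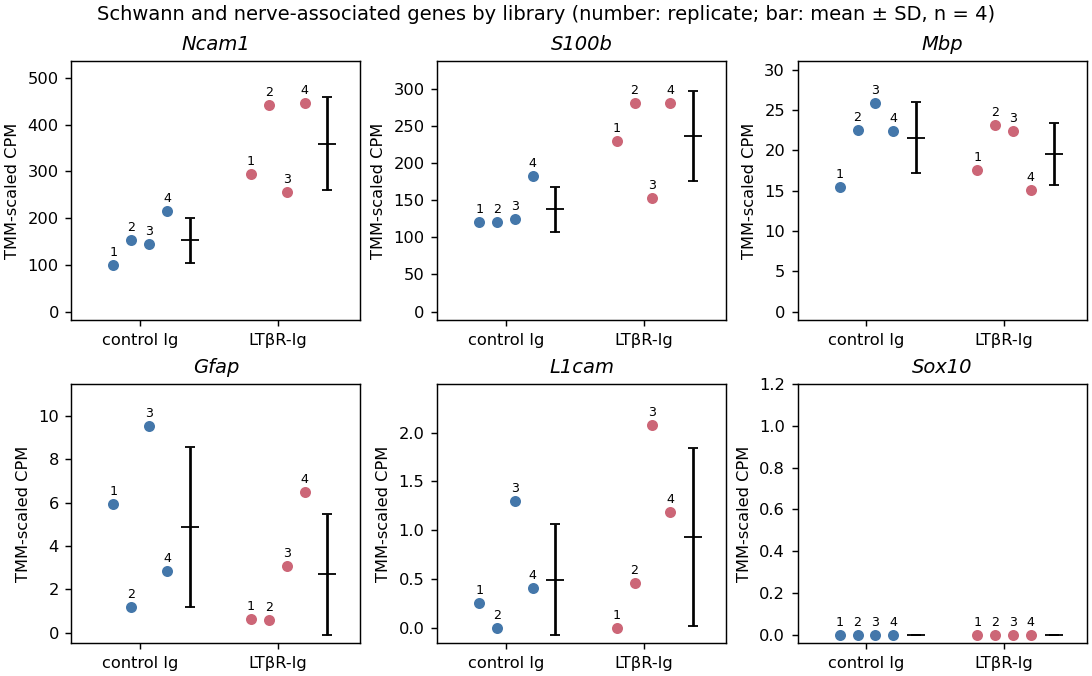
TMM-scaled CPM of each of the 6 genes in each library (points, numbered by replicate), with the mean and SD of 4 libraries beside each group on a linear axis that differs between panels. Ncam1 is the gene with no overlap between groups (98.7 to 216 against 256 to 447 CPM), and Sox10 is at 0 in all 8 libraries.

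Ncam1 spans chr9:49502136-49798925 on the minus strand of mm10 and encodes the neural cell adhesion molecule. Its level was 98.7, 154, 144 and 216 CPM in control replicates 1 to 4. It was 294, 443, 256 and 447 CPM in LTβR-Ig replicates 1 to 4. The groups did not overlap, although LTβR-Ig replicate 3 was only a little above control replicate 4. The control mean was 153 ± 48.2 CPM and the LTβR-Ig mean 360 ± 99.5 CPM (SD, n = 4 each), a ratio of 2.35. The fitted log2 fold change was 1.23 (SE 0.27, 95% interval 0.63 to 1.84, edgeR adjusted p = 0.223). DESeq2 gave the same log2 fold change with an adjusted p of 0.000822, so the call for Ncam1 differed between tools. A predicted antisense transcript, Gm11149, shares 417 exon bases with Ncam1. The strand setting of the counting is not given, so reads there cannot be told apart. Gm11149 itself averaged 1.90 CPM in the controls and 1.37 CPM with LTβR-Ig. What the shared bases do to the count of Ncam1 was not tested.

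S100b spans chr10:76253853-76261159 on the plus strand. It was at 121, 121, 125 and 183 CPM in control replicates 1 to 4, and at 229, 281, 153 and 281 CPM in LTβR-Ig replicates 1 to 4. In all, 3 of the LTβR-Ig libraries lay above every control, but LTβR-Ig replicate 3 lay below control replicate 4. The control mean was 138 ± 30.4 CPM and the LTβR-Ig mean 236 ± 60.3 CPM (SD, n = 4 each), a ratio of 1.72. The log2 fold change was 0.78 (SE 0.22, 95% interval 0.28 to 1.28, edgeR adjusted p = 0.444), and DESeq2's adjusted p was 0.0555. In both genes the controls' highest library was replicate 4. In both, the lowest of the treated libraries was LTβR-Ig replicate 3.

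Mbp lies on chromosome 18. Its level was 15.4, 22.5, 25.9 and 22.4 CPM in control and 17.5, 23.1, 22.4 and 15.1 CPM in LTβR-Ig replicates 1 to 4. The groups overlapped, and the lowest library of each group was at nearly the same level. The control mean was 21.6 ± 4.41 CPM and the LTβR-Ig mean 19.5 ± 3.84 CPM (SD, n = 4 each). The log2 fold change of Mbp was -0.14 (SE 0.23, 95% interval -0.66 to 0.37, edgeR adjusted p = 1). Mbp is one gene with transcripts that run beyond myelin, the Golli forms made in immune and other cells, and gene counts do not separate them.

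Gfap lies on chromosome 11, at 102887336 to 102900912. In control replicates 1 to 4 it was at 5.93, 1.19, 9.56 and 2.83 CPM, and in LTβR-Ig replicates 1 to 4 at 0.616, 0.585, 3.07 and 6.50 CPM. Libraries of one group differed by more than the group means did. The log2 fold change was -0.86 (SE 0.92, 95% interval -2.93 to 1.22, edgeR adjusted p = 1). Without control replicate 3 and LTβR-Ig replicate 2, the ends of the first principal component of all genes, the log2 fold change of Gfap was 0.03. That setting was chosen after seeing the data.

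L1cam lies on chromosome X, at 73853778 to 73896105, and had counts in 6 of 8 libraries. There were 16, 0, 73 and 24 counts in control and 0, 24, 118 and 61 counts in LTβR-Ig replicates 1 to 4. The groups overlapped, with a library at 0 in each. The log2 fold change of 0.92 had an SE of 1.67 and a 95% interval of -2.87 to 4.70 (edgeR adjusted p = 1), an interval that spans both directions. Counts differed between libraries of one group by far more than the group means. L1cam shares 100 exon bases with Arhgap4 on the same strand, and the sources do not say how reads in shared bases were assigned.

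Sox10, on chromosome 15 at 79154908 to 79165240, had 0 counts in all 8 libraries and was not tested. A count of 0 allows up to 3 counts, or 0.0466 to 0.0573 CPM per library and 0.00644 CPM over the 465819898 counts of all libraries. These limits cover counting error only.

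Per kilobase of exon the order of the genes changed. S100b, with short transcripts, had the highest level per kilobase, at 92.6 CPM in the controls and 159 CPM with LTβR-Ig. Ncam1 followed at 17.7 and 41.5 CPM per kilobase. Mbp was at 2.55 and 2.31, Gfap at 1.16 and 0.638 and L1cam at 0.0669 and 0.127 CPM per kilobase. The order from S100b through Ncam1 and Mbp to Gfap and L1cam was the same in both groups. Over all libraries S100b (81.5 to 189) and Ncam1 (11.4 to 51.6) did not overlap per kilobase. The range of Mbp (1.79 to 3.06) overlapped that of Gfap (0.139 to 2.27), and Gfap's overlapped that of L1cam (0 to 0.283). Within each library the order held for all of these neighbours, in 8 of 8 libraries.

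The question whether the genes move as a set was addressed by correlating log2 CPM over the 8 libraries for the 10 pairs of tested genes. Only Ncam1 and S100b varied together past the threshold. Their Pearson r was 0.94 (exact two-sided permutation p = 0.000967, adjusted over 10 pairs 0.00967), and Spearman's rho was 0.90 (exact permutation p = 0.00456, adjusted 0.0456). Without LTβR-Ig replicates 2 and 4, the libraries farthest from the median of S100b, r was 0.85 over 6 libraries (exact permutation p = 0.0333). Both genes were higher on average after treatment, so part of this r is the contrast that chose them. As deviations from the group means, which leave the contrast out, r was 0.85 (exact permutation within groups, p = 0.0122, adjusted 0.122). Within the groups r was 0.81 over the 4 controls and 0.92 over the 4 LTβR-Ig libraries, too few to test.

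**Figure D2:**
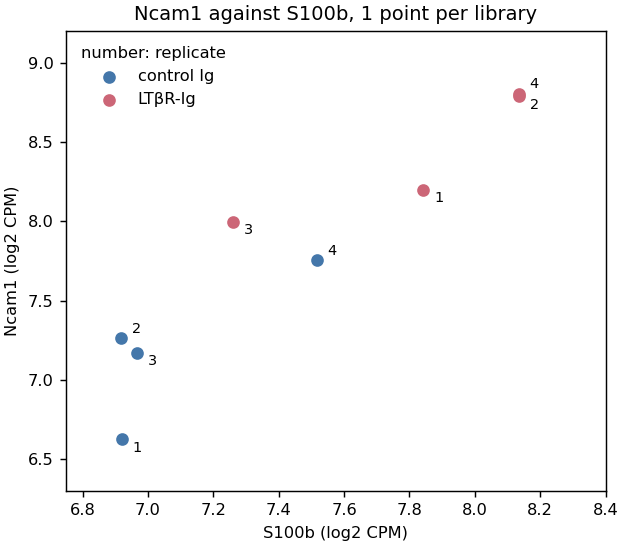
Level of Ncam1 against S100b in log2 CPM (prior count 2), with 1 point per library, coloured by group and numbered by replicate. The genes are high in the same libraries (r = 0.94), with LTβR-Ig replicates 2 and 4 on top of each other at its upper end.

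In log2 CPM over all libraries, Mbp had r of -0.28 with S100b and -0.09 with Ncam1, and Gfap had -0.41 with S100b and -0.42 with Ncam1. As deviations from the group means, r was -0.14 and 0.26 for Mbp and -0.16 and -0.15 for Gfap. Within groups the sign varied, and Mbp with Ncam1 had 0.69 over the 4 controls and -0.27 over the 4 LTβR-Ig libraries. L1cam and Gfap gave r = 0.65 (exact permutation p = 0.0906, adjusted 0.453) and r = 0.79 as deviations from the group means (exact permutation p = 0.0312, adjusted 0.156). Without control replicate 2 and LTβR-Ig replicate 1, both at 0 for L1cam, their r in log2 CPM was 0.29, so on that scale the relation rests on those libraries. As deviations, a setting added after seeing the data, r without them was 0.66. For the 8 pairs other than these, r lay between -0.42 and 0.19 with adjusted permutation p from 0.75 to 0.832. With 8 libraries these p-values do not show that the genes vary independently.

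**Figure D3:**
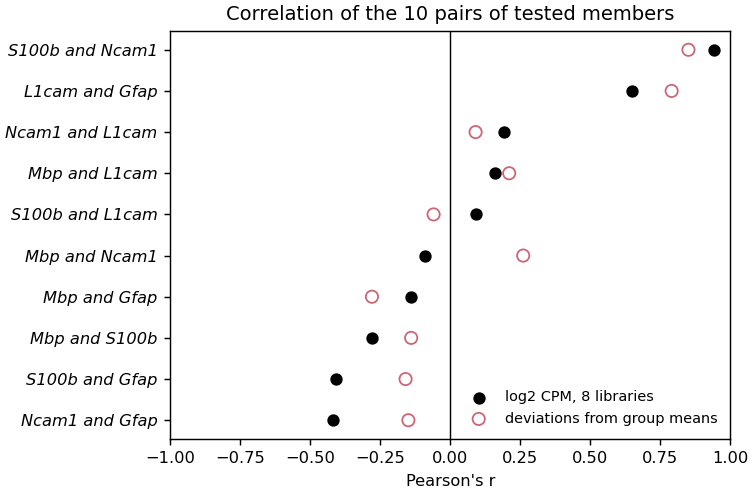
Pearson's r for each of the 10 pairs of tested genes over 8 libraries, from log2 CPM (filled points) and from deviations from the group means (open points). S100b with Ncam1 lies at 0.94 and 0.85, L1cam with Gfap at 0.65 and 0.79, and the other pairs lie nearer to 0 in log2 CPM.

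The partners with the highest r within the set, S100b with Ncam1 and L1cam with Gfap, were ranked among all genes. Among 11375 genes compared by the r of deviations from group means over 8 libraries, Ncam1 ranked 127 for likeness to S100b, and Gfap ranked 385 for likeness to L1cam. The nearest to S100b were Klhl4 (0.98), Ibsp (0.97), which encodes the bone matrix protein bone sialoprotein, and Aaed1 (0.97). Among the nearest to Ncam1 were Igfals (0.98), which binds insulin-like growth factor complexes, and Slc35b1 (0.98). Those of Mbp were Fam213b, Pald1 and the interferon receptor gene Ifnar2, with r of 0.97, 0.97 and 0.96. For Gfap they were Dnajc14, Nrbf2 and Ankra2 (0.97, 0.96 and 0.95), and for L1cam Mcub, Apc and Dram2 (0.99, 0.98 and 0.98). These are the highest of many r over 8 libraries, and no test was made of them.

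Ncam1 and S100b carried the summed level of the set. The control sum was 318 ± 77 CPM (241 to 425) and the LTβR-Ig sum 619 ± 156 CPM (436 to 751; SD, n = 4 each), a ratio of 1.95. Ncam1 held 47.6 ± 4.86% of the sum in control and 57.9 ± 2.44% in LTβR-Ig libraries, and S100b held 43.7 ± 4.47 and 38.1 ± 3.04%. Mbp held 6.92 and 3.37%, Gfap 1.66 and 0.44%, and L1cam at most 0.477% in any library. Of the difference between the group means of the sum, 68.5% was Ncam1 and 32.7% was S100b. L1cam made up 0.145% of it, and Mbp and Gfap, whose means were lower, -0.67 and -0.724%.

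Without Ncam1 the ratio of the sums was 1.58, and without S100b it was 2.13. Without both, it was 0.86, with 26.9 ± 6.77 CPM (21.6 to 36.8) in the controls and 23.2 ± 3.88 CPM (18.2 to 27.5) with LTβR-Ig (SD, n = 4 each). The groups then overlapped. Per exon length, a scale chosen after seeing the data, the ratio of the sum was 1.79 with all 6 genes and 0.815 without Ncam1 and S100b.

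**Figure D4:**
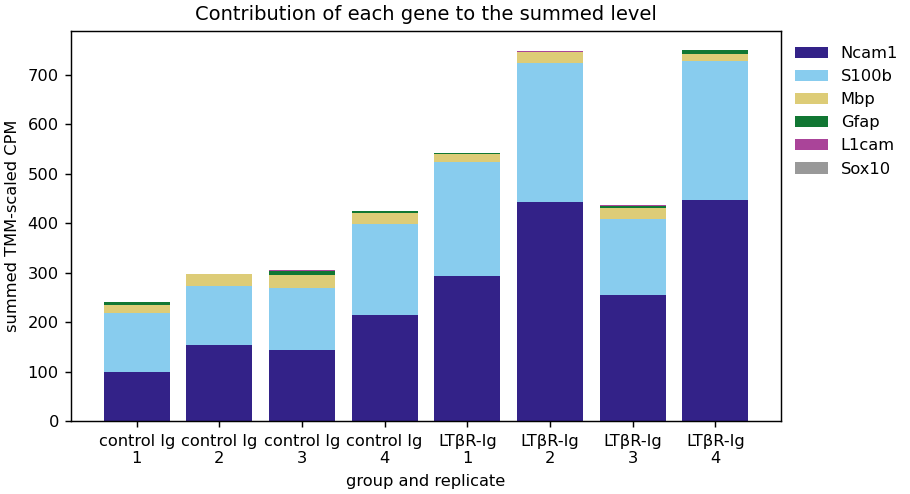
Summed TMM-scaled CPM of the 6 genes in each library, stacked by gene from a baseline of 0. Ncam1 and S100b fill nearly all of every bar, and the 4 LTβR-Ig bars reach 436 to 751 CPM against 241 to 425 CPM in the controls.

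Several other markers of the Schwann lineage were at or near 0, and some were detected in part of the libraries. Of 12 lineage genes in the table, 4 had no count in any library, Sox10, Foxd3, Pou3f1 and Pou3f2. The receptor gene Erbb3 had counts only in control replicates 1, 2 and 4, at 1.79, 2.60 and 0.307 CPM. Cdh19, a cadherin of Schwann cell precursors, had counts only in LTβR-Ig replicate 4, at 1.61 CPM. Adgrg6, an adhesion receptor that Schwann cells need to make myelin, had counts in 7 of 8 libraries, at 0 to 4.55 CPM in control and 0.194 to 16.1 CPM in treated libraries. Egr2, a transcription factor of myelination, reached 5.60 CPM in control replicate 3 and was at 1.65 CPM or below in the others. Ngfr, a neurotrophin receptor that marrow stromal cells can also express, had counts in 4 libraries, the highest in LTβR-Ig replicate 4 at 5.53 CPM. The summed level of the list was 20.5 to 26.9 CPM in control and 13 to 36.8 CPM in treated libraries. Most of it was Erbb2, the broadly expressed partner of Erbb3, with a log2 fold change of 0.06 that turned negative under 4 alternatives. None of the 4 tested lineage genes was called by edgeR or had an unadjusted p under 0.05 in it. DESeq2 gave an adjusted p to 3 of them and called 0. The median log2 fold change over the 4 was 0.12. They ran from Egr2 at -1.63 (SE 2.11) to Adgrg6 at 1.46 (SE 1.45).

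Of 16 myelin genes, 5 were at 0 in all libraries, among them Gjb1, the connexin of Schwann cells. Of 9 tested, edgeR and DESeq2 called 0, 0 had an unadjusted p under 0.05 in edgeR, and the median log2 fold change was -0.03. The sum of the list was 287 to 362 CPM in the controls and 228 to 442 CPM with LTβR-Ig. Pmp22 and Cnp, which many tissues also express, supplied most of it. Pmp22 had a log2 fold change of -0.05 and Cnp of -0.03, and both turned positive when some libraries were left out.

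The list of genes of Schwann cells that make no myelin holds 4 of the 6 genes, so its ratio of 1.95 is no separate evidence. Of its 13 genes 3 were at 0 in all libraries, Sostdc1, Kcna1 and Gfra3. Of 7 tested, 3 were higher at an unadjusted p under 0.05, edgeR called 0, and DESeq2 called 1, Ncam1. The 3 were Ncam1, S100b and Matn2, an extracellular matrix protein, with a log2 fold change of 0.52 (SE 0.22, edgeR adjusted p = 0.766) and overlapping groups. The sodium channel gene Scn7a had a log2 fold change of 0.07, which turned negative without control replicate 3 or LTβR-Ig replicate 2. The list's median was 0.52. Over all tested genes, 3.39% were higher at an unadjusted p under 0.05, and DESeq2 called 0.552% of its genes as higher.

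Transcripts of the axon list were scarce as well, and what this says of nerve content was not tested. Nefl, Th, Dbh, Snap25, Tac1 and Elavl4 were at 0 in all libraries, 6 of 16 genes. The sum of the list was 9.27 to 19.2 CPM in control and 8.28 to 15 CPM in treated libraries. Syp, which encodes a synaptic vesicle protein, was at 0.412 to 1.69 CPM in the controls and 2.77 to 5.82 CPM with LTβR-Ig, with no overlap (log2 fold change 2.04, SE 0.63, edgeR adjusted p = 0.513). Nefh, a neurofilament subunit, was at 6.10 to 11.9 CPM in the controls and 0.448 to 4.07 CPM with LTβR-Ig, also with no overlap and the other way (log2 fold change -1.33, SE 0.63, edgeR adjusted p = 0.816). Over all tested genes, 2.36% had every LTβR-Ig library above every control, and 2.53% had every one below. Of the 5 tested axon genes, 1, Syp, was higher at an unadjusted p under 0.05 in edgeR, and 0 were lower. The shares of all tested genes were 3.39 and 2.93%. The list was chosen with earlier results known, so nothing is read from these counts. The median over the 5 tested axon genes was -1.21, which is the value of Tubb3, a gene at 1.32 CPM on average with an SE of 1.69. Among 8 oligodendrocyte genes, 4 were at 0 in all libraries, Mog, Mobp, Opalin and Olig2.

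Sheath genes were counted next. Of 8 tested genes of perineurial and endoneurial cells, 2 were lower at an unadjusted p under 0.05, against 2.93% of all tested genes. The edgeR test called 0, and DESeq2 called 1, Cldn1, against 1.25% of its genes in either direction. The median log2 fold change was -0.09. The tight junction gene Cldn1 was at 191, 159, 148 and 184 CPM in the controls and 81.8, 86.8, 32.6 and 93.6 CPM with LTβR-Ig (log2 fold change -1.21, SE 0.29, edgeR adjusted p = 0.312, DESeq2 0.00435). The transporter gene Abca9 had -0.53 (SE 0.19, edgeR adjusted p = 0.628). Wif1, a secreted Wnt inhibitor, had 0.05, with a sign that turned when some libraries were left out.

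Mdk and Ptn, the related growth factors midkine and pleiotrophin, had log2 fold changes of 0.28 and -0.06, and Ptn turned positive without some libraries.

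The relatives of the set's genes were counted by family. Of 9 tested genes of the Ncam and L1 families and related adhesion molecules, 1 was higher at an unadjusted p under 0.05, Ncam1. The median log2 fold change was 0.92, the value of L1cam itself (0.711 CPM on average, SE 1.67). Above it besides Ncam1 were Cadm3 (0.742 CPM, SE 1.91), Mcam (1.72 CPM, SE 1.56) and Alcam (5.26 CPM, SE 0.73). Below it were Cntn1 at 0.18, Cadm1 at -0.48 and Chl1 at -0.78, each above 17 CPM on average. Nrcam, a member of the L1 family, was also below it, with -0.67 (SE 0.33, edgeR adjusted p = 0.845). Of 12 tested S100 genes, 3 were higher at an unadjusted p under 0.05, S100b, S100a6 and S100a11, and the median was 0.27. S100a6 had 0.50 (edgeR adjusted p = 0.509) and S100a11 0.34 (edgeR adjusted p = 0.561). Both are small calcium-binding proteins of many cell types. Of the 5 tested filament genes of this class, Gfap included, Vim was higher at an unadjusted p under 0.05 (log2 fold change 0.41, edgeR adjusted p = 0.478) and Synm was lower (-0.65, edgeR adjusted p = 0.786). Des, of muscle and pericytes, had -0.51 with overlapping groups, and the median of these filament genes was -0.51. In these 3 families edgeR called no gene, and DESeq2 called 1, Ncam1. For comparison, 3.39% of the whole table met the unadjusted edgeR threshold upward and 2.93% downward. DESeq2 called 1.25% of its genes, 0.552% as higher. The families were picked after earlier results had been seen, and their counts support no conclusion about a family.

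**Figure D5:**
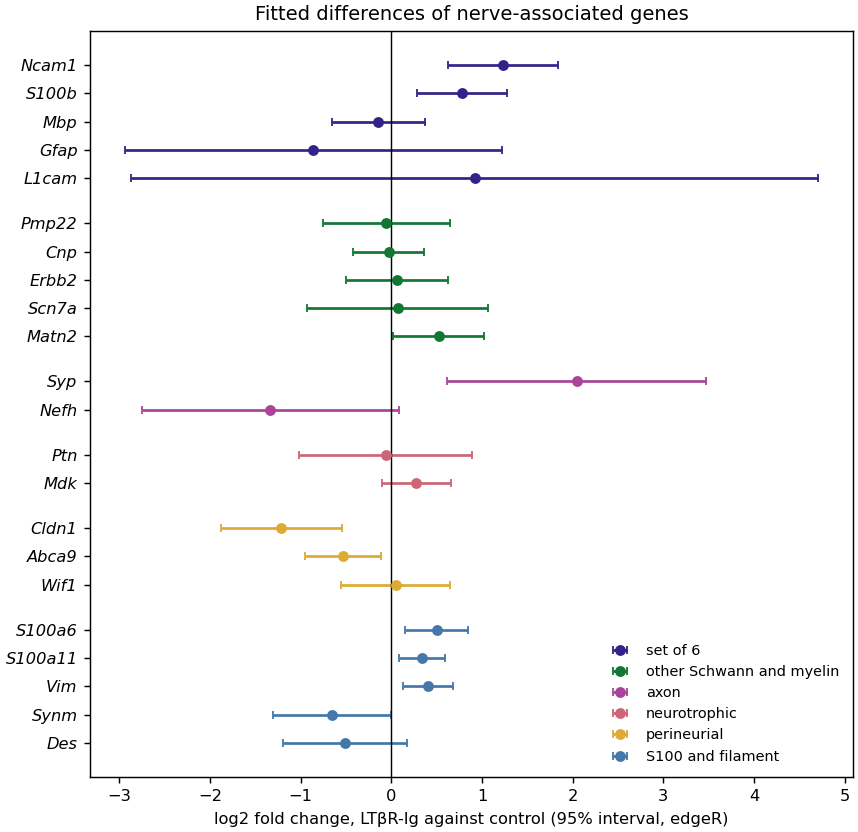
Fitted log2 fold change of LTβR-Ig against control with its 95% interval from edgeR, for the 5 tested genes of the set and 17 related genes, coloured by group. Ncam1 (1.23), S100b (0.78) and Syp (2.04) lie to the right and Cldn1 (-1.21) to the left, while Mbp, Pmp22 and Cnp lie near 0 and L1cam and Gfap have the widest intervals within the set.

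Markers of other cells were measured beside Ncam1 and S100b, and their part in the result was not tested. Endothelial cells are meant to be removed by the CD31 and CD144 gates. All 10 endothelial genes had counts, with a sum of 51.7 to 164 CPM in the controls and 36.3 to 328 CPM with LTβR-Ig. All 10 megakaryocyte genes had counts, with sums of 618 to 2650 and 921 to 3700 CPM. Although the gate took Ter119- and CD45- cells, the 9 erythroid genes in the matrix summed to 15700 to 48000 CPM in the controls. Their sum was 15800 to 36700 CPM with LTβR-Ig. The 10 neutrophil genes summed to 3990 to 9380 and 4540 to 9050 CPM. The 11 osteoblast genes, none at 0 throughout, summed to 12100 to 26000 and 13000 to 21800 CPM. Of 10 tested osteoblast genes 3 were higher at an unadjusted p under 0.05, against 3.39% of all tested genes. The edgeR test called 0 and DESeq2 called 1, Alpl, against 0.552% of its genes called as higher. The median log2 fold change of the list was 0.44. The gene lists were chosen with earlier results known, so nothing is read from such counts. Alpl, which encodes the tissue-nonspecific alkaline phosphatase, had 0.95 (edgeR adjusted p = 0.223, DESeq2 0.00226), with no overlap between groups. Sp7, a transcription factor of osteoblast precursors, had 0.95 (edgeR adjusted p = 0.478).

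Cartilage and fat markers were measured because S100b is made there as well. The 11 chondrocyte genes summed to 101 to 419 CPM in control and 196 to 621 CPM in treated libraries, a ratio of 1.42, and Acan, the main proteoglycan of cartilage, had counts in 2 of 8 libraries. Comp, a cartilage and tendon matrix protein, was at 23.1, 30.7, 36.8 and 10.2 CPM in control replicates 1 to 4 and at 44.1, 77.6, 60.3 and 59.5 CPM in LTβR-Ig replicates 1 to 4. Its groups did not overlap (log2 fold change 1.26, SE 0.36, edgeR adjusted p = 0.46, DESeq2 0.0395). It was the only 1 of 5 tested chondrocyte genes with an unadjusted p under 0.05, and 3.39% of all tested genes were higher at that threshold. The 10 adipocyte genes summed to 2990 to 4400 and 3620 to 5540 CPM, and of 7 tested 0 had an unadjusted p under 0.05. Most of this sum was Adipoq, which is also counted among the stromal identity genes below. It averaged 3650 of 3780 CPM in control and 4100 of 4280 CPM in LTβR-Ig libraries. The part of cartilage and fat cells in the level of S100b was not tested.

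The 14 genes of stromal identity summed to 34400 to 43300 CPM in control and 37500 to 47400 CPM in treated libraries. Of 13 tested, 2 were lower at an unadjusted p under 0.05, against 2.93% of all tested genes. Both had no overlap between groups, and 2.53% of all tested genes had every LTβR-Ig library below every control. Kitl, which encodes stem cell factor, had a log2 fold change of -0.58 (SE 0.10, edgeR adjusted p = 0.125, DESeq2 0.000192). Pdgfra, a growth factor receptor of mesenchymal cells, had -0.29 (SE 0.11, edgeR adjusted p = 0.649, DESeq2 0.396).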

How the data were processed

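The deposited file is 1 table of unnormalized read counts per gene made by the authors, with a column for each of 8 libraries. Reads were paired, 76 bp long, per the labels' protocols. HISAT2, HTSeq and mm10 are named in the submitters' processing notes, with versions, annotation and strand setting not given in the sources used here. Symbols and coordinates came from GENCODE on GRCm38 (mm10), and 52403 IDs matched without version suffix. IDs without a symbol took 0.0207 to 0.148% of counts.

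Groups and replicate numbers came from the titles. The main test was edgeR 4.0.16 in R 4.3.3 (TMM, filterByExpr with minimum count 10 and total 15, robust quasi-likelihood F test, no covariate, all 8 libraries), with Benjamini-Hochberg adjustment over all tested genes and a threshold of 0.05. The scripts were tested on simulated data. Each SE is the absolute log2 fold change over the square root of F. Exon lengths are unions of annotated exons. Correlations used log2 CPM with a prior count of 2, an exact permutation test over pairings written with numpy 2.4.6, and adjustment over the 10 pairs. Ranks came from scipy 1.17.1. Chi-square comparison of replicate counts found no library deposited more than once.

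The members and the 23 gene lists were chosen with earlier results of these data known. The naming rule took the 6 genes, the 3 genes most like each tested one, and from each list up to 4 genes with the highest mean CPM and up to 4 with the smallest p among those under 0.05. The text names those of the nerve-related, osteoblast, cartilage and stromal lists, and some genes of the rule are not reported here. Genes named because they were at 0, and Erbb3, Cdh19, Acan and Gm11149, were named after their values were seen. The alternatives were edgeR with DESeq2 size factors or with upper-quartile scaling, a Wald test in DESeq2 1.42.0 on the filtered genes, voom with sample weights in limma 3.58.1, no filter, a strict filter (10 counts in 4 libraries, mean of 5 CPM), the replicate number as a block, a prior count of 0.5, deviations from group means, and leaving out each library. Added after seeing the data were a fit without the outermost 2 libraries on the first principal component, levels per exon length, and r of deviations without the libraries farthest from the median.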

Additional observations from a re-analysis of the deposited data

Results flagged for a closer look

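In each group of 4 libraries, the highest and lowest values were compared with the rest, for 58 values of genes and lists, and 2 stood apart by Dixon's criterion. Chance sets apart about 1 in 20 groups. S100b in control replicate 4 was at 183 CPM, while the other controls were at 120.9 to 124.9 CPM. The groups of S100b overlap between this library and LTβR-Ig replicate 3, which was at 153 CPM. The summed level of 8 oligodendrocyte genes was 6.264 CPM in LTβR-Ig replicate 2 and 11.07 to 11.92 CPM in the other LTβR-Ig libraries. Of that list Aspa was at 1.81 CPM in LTβR-Ig replicate 2 and at 7.05 to 10.7 CPM in the other libraries of its group.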

How the results depend on the processing

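The count of genes called over the whole table was 6, and it was 199 with the DESeq2 Wald test, 14 with limma-voom, 22 with the strict filter, 1 with the replicate block, 2 to 9 without each library in turn (2 without control replicate 3) and 1 without both ends of the first principal component. Ncam1 kept its direction in all 16 alternatives (1.07 to 1.45) and passed in DESeq2 alone (1.23). S100b ranged from 0.64 to 0.95, Mbp from -0.27 to -0.04 and L1cam from 0.16 to 2.30, and none passed. Gfap ranged from -1.78 and turned to 0.03 without the principal component ends. With deviations from group means 0 pairs of the 10 passed, against 1, and r of Ncam1 and S100b was 0.85. The ratio of the summed level lay between 1.79 and 2.20. The other directions that turned were those of fold changes near 0. Without each library in turn, the log2 fold change ranged from -0.36 to 0.13 for Pmp22, -0.14 to 0.07 for Cnp, -0.07 to 0.22 for Erbb2, -0.19 to 0.29 for Scn7a, -0.56 to 0.22 for Ptn and -0.18 to 0.19 for Wif1. Without the ends of the first principal component Cnp was at 0.09, Erbb2 at -0.19 and Scn7a at -0.43, and Erbb2 was at -0.02 with limma-voom. The cause was not tested in any of these. The series' text names 4 pairs but not how they were formed. Deviations of same-numbered libraries correlated at 0.075, 0.03, 0.045 and 0, and 3 of 8 libraries correlated best with their own number. The numbers were not used as pairs in the main test, but these values over all genes do not settle whether libraries were paired. With the replicate block Ncam1 was at 1.24 (SE 0.16, edgeR unadjusted p = 0.000312, adjusted p = 0.282). Its main fit had an SE of 0.27 (edgeR unadjusted p = 0.00134, adjusted p = 0.223). With the block the SE of S100b went from 0.22 to 0.17, and that of L1cam from 1.67 to 2.32. Sox10 had no counts and gave no value in any setting, and L1cam and Gfap gave none under the strict filter. L1cam and Gfap had the widest intervals of the set, with libraries of one group that differed several fold; what depth adds to this was not tested.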
